A study of Mus musculus with 12 samples.

Results

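The leptin receptor gene Lepr and 6 genes that act beside it in leptin signalling were followed in the liver of obese, diabetic db/db mice given molecular hydrogen (H2). The members were the spots of the 2-colour Agilent arrays whose RefSeq record belonged to Lepr, Leprot, Leprotl1, Stat3, Socs3, Jak2 or Ptpn1, under a current or a former symbol. They came to 12 probes of 39429 on the array, and to 7 genes of the 20283 gene symbols that the array names. Lepr had 4 probes, Stat3 and Ptpn1 had more than 1 each, and the other 4 genes had a single probe.

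Leptin, a hormone secreted by fat cells, binds the receptor encoded by Lepr, and the kinase JAK2 attached to the receptor phosphorylates the transcription factor STAT3. STAT3 switches on Socs3, whose product blocks the receptor and JAK2, and the phosphatase PTP1B, the product of Ptpn1, removes phosphates from JAK2. Lepr is transcribed as a long form, which carries the signalling tail, and as short forms, which predominate in the liver, and in db/db mice a splicing mutation in Lepr takes away the long form. Leprot and Leprotl1 encode small membrane proteins that limit the amount of receptor at the cell surface.

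Each of the 12 arrays set the liver RNA of H2-treated mice, labelled with Cy5, against that of control mice, labelled with Cy3. All the mice, treated and control, were male db/db animals of 8 weeks, so both channels carried the Lepr mutation and no probe could check the genotype. MgH2, which releases H2 in the stomach, was gavaged daily at a dose of 0.9 mg/kg for 1, 3 or 7 days, with Mg(OH)2 as the control. Water holding 0.8 mM H2 was drunk for 14 days, with the same water after degassing as the control. There were 3 arrays for each of the 4 groups. Each RNA was a pool of 3 mice, so the spread between arrays was a spread between pools. The dyes were never exchanged, so a dye effect of a probe and an effect of H2 cannot be told apart.

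The arrays were alike in quality, with 51.8 to 56.6% of spots above background in both channels, 160 to 244 spots left out by the scanner software's flags and 0 saturated. The 14-day arrays lay on a slide of their own, scanned apart from the others and read with an earlier version of that software, so slide and group cannot be told apart for them. The labelled tissue fitted its markers: the 9 hepatocyte markers on the array (among them Alb, Ttr, Apoa1 and Cps1) were above background at 1, 3 and 7 days. At 14 days 8 of them were above background on all arrays. The remaining marker was above background on some of these arrays, and the summed level had a missing value. A lower level of a transcript in these bulk samples can come from fewer cells of a type or from less RNA per cell, which cannot be told apart.

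The promoter windows of Lepr and Socs3 are shown because these were the members whose signal moved most between arrays. Each window is the 250 bases before a RefSeq transcription start in GRCm38.p6, written 5′ to 3′ on the gene's strand. Capitals mark the letters of a STAT site (TTCNNNGAA) or of a GC box (GGGCGG), both searched on both strands. Windows of more than 1 Lepr start were available, and both are given, at chr4:101717157-101717406 and chr4:101717656-101717905 on the plus strand. That of Socs3 is chr11:117969367-117969616 on the minus strand. These windows lie inside the annotated genes, which begin at 101717137 for Lepr and reach 117970336 for Socs3. A start further upstream is therefore not covered by them.
Lepr, first start: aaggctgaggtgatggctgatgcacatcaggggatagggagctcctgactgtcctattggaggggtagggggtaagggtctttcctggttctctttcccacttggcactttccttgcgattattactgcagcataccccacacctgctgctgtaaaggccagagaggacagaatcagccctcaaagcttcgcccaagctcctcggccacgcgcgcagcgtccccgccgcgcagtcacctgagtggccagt
Lepr, second start: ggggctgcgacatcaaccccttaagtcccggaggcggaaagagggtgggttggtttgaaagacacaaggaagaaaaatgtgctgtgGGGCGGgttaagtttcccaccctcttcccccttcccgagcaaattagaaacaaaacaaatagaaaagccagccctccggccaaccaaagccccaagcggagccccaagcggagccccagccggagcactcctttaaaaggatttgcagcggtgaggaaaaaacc
Socs3: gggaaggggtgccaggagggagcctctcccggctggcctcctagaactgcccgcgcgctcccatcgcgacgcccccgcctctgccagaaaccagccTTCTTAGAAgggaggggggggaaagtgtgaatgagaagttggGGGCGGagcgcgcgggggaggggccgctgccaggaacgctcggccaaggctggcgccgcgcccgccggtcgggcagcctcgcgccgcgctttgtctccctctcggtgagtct
The Socs3 window held 1 STAT site, TTCTTAGAA, 154 to 146 bases before the start, and a GC box at 112 to 107 bases. Neither Lepr window held a STAT site, and only the second held a GC box, at 164 to 159 bases. Among all 32851 RefSeq promoter windows of this length, 7.02% held a STAT site and 32.7% a GC box. Windows were found for 6 of the 7 members. Those of Leprot, Jak2, Ptpn1 and Stat3 held 6, 2, 2 and 1 GC boxes and no STAT site. The GC content was 71.6% for Socs3 and 58.4 and 54.8% for the Lepr windows. A match of letters is a description of the sequence and not a measured binding site.

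Lepr lies on chromosome 4, from 101717137 to 101815352 in RefSeq's GRCm38.p6 annotation. Of its 4 probes, 1 (A_55_P2177910, designed on NM_010704) was well above background in both channels on 12 of 12 arrays. The other 3 were not well above background in either channel on any array. They were A_55_P2177911, on the same record, A_55_P2192662, on NM_001122899, and A_66_P130517, on NM_146146, the record of the long form. Signals are given here in units, with the total of each channel set to 1000000 units, and on this scale the last of these lay between 0.0219 and 0.0458 in the controls and between 0.0249 and 0.0393 after H2. The files do not place the probes on the transcript, so the silent probes give only a bound on what they measured and do not show which receptor forms were present.

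**Figure D1:**
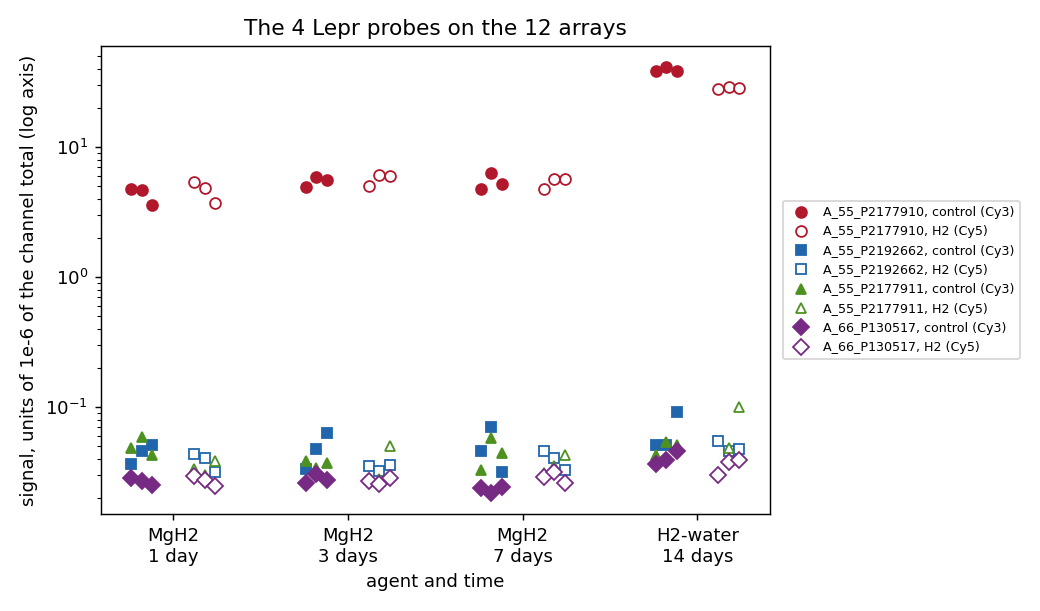
Signal in units (channel total set to 1000000, log axis) of the 4 Lepr probes on the 12 arrays, by agent and time, with filled symbols for the control channel (Cy3) and open symbols for the H2 channel (Cy5). Probe A_55_P2177910 sits between 3.57 and 6.26 in the MgH2 experiments' controls and between 38.2 and 41.1 in the H2-water controls, where alone the channels do not overlap, and the other 3 probes stay near the floor on every array.

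After 14 days of H2-water, Lepr was lower in the treated livers. Its measured probe fell from 38.2 to 27.7 units on the first array, from 41.1 to 29.0 on the second and from 38.7 to 28.3 on the third. The control and H2 values did not overlap, and the 3 log2 ratios of H2 over control, -0.46, -0.50 and -0.45, lay close together. The mean log2 ratio was -0.47 ± 0.03 (SD, n = 3), a level 1.39-fold lower, with a standard error of 0.05, a 95% interval of -0.58 to -0.37 and an adjusted P of 0.000352 (limma, Benjamini-Hochberg). Lepr was the only member called among the 8 member probes tested at 14 days, where 9.63% of all 20428 probes were called and 5.75% were called lower. The direction of these calls depended on the scaling, with 792 probes higher and 1175 lower as scaled here, 1024 and 813 in the deposited ratios and 1243 and 104 with median-centred arrays. By P it stood at rank 121, and 172 probes, 0.842% of those tested, had a log2 ratio as low or lower. The call was also made when any 1 of the 3 arrays was left out, with adjusted P between 0.00577 and 0.00616. With the methods' t-test the unadjusted P of Lepr was 0.000227, under the 0.05 that the methods set without naming an adjustment. The call was lost when Benjamini-Hochberg was added to that test, with an adjusted P of 0.0524.

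During MgH2 gavage the same probe did not differ between the channels beyond its spread. At 1 day it read 4.74, 4.71 and 3.57 units in the controls and 5.41, 4.80 and 3.72 after H2. At 3 days the controls read 4.90, 5.93 and 5.62 and the H2 channel 4.98, 6.07 and 6.04. At 7 days the controls read 4.76, 6.26 and 5.23 and the H2 channel 4.76, 5.71 and 5.63. Control and H2 values overlapped at each of the 3 times. The mean log2 ratios were 0.09 at 1 day (95% interval -0.02 to 0.20), 0.05 at 3 days (-0.05 to 0.16) and -0.01 at 7 days (-0.12 to 0.10), with adjusted P of 0.245, 0.459 and 0.912. The intervals leave out a fall of the size measured at 14 days.

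The difference between the 14-day and the 1-day log2 ratio of Lepr was -0.56 (SE 0.07, 95% interval -0.71 to -0.41, adjusted P = 0.0261, limma with Benjamini-Hochberg). Only 9 of 18743 probes, 0.048%, were called in that contrast, and Lepr had the 4th lowest P. The call did not hold when any 1 of the 6 arrays was left out, MgH2 1-day replicates 1, 2 and 3 and H2-water replicates 1, 2 and 3 alike, with differences of -0.60 to -0.52 and adjusted P of 0.0568 to 0.163. Set against the mean of the 1-, 3- and 7-day arrays, a comparison chosen after seeing the data, the 14-day ratio differed by -0.52 with an adjusted P of 0.00529. Agent, route, time, slide and scan all differ between these groups and cannot be told apart. In the contrasts of 3 with 1 day, 7 with 1 day and 7 with 3 days, 0.0208, 7.03 and 0% of all probes were called. None of the 8, 8 and 9 member probes tested there passed the limma threshold or an unadjusted P of 0.05, and 890 probes of the array passed the latter in the last contrast. The 1-day and 7-day arrays shared no slide or scan, so slide and time cannot be told apart between them. With slide as a fixed block 0 probes were called for 7 minus 1 days.

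The level of the Lepr probe, apart from its ratio, separated the H2-water arrays from all the others. Its group means in order were 4.34 ± 0.67 (1-day controls), 4.64 ± 0.86 (1 day H2), 5.37 ± 0.53 (7 days H2), 5.42 ± 0.77 (7-day controls), 5.49 ± 0.53 (3-day controls), 5.70 ± 0.62 (3 days H2), 28.3 ± 0.63 (14 days H2) and 39.4 ± 1.55 units (14-day controls, SD, n = 3 each). Neighbours among the first 6 lay within each other's spread, although the 1-day controls (3.57 to 4.74) and the 3-day H2 values (4.98 to 6.07) did not overlap. The step to the 14-day arrays was larger than any spread. On the log2 scale the water controls were 7.83-fold above the gavage controls (6.48-fold in the deposited signals and 6.39-fold in raw signals less background). The H2 channels differed 5.47-fold (4.50-fold in the deposited signals and 6.415-fold in raw signals less background). The gap between these steps therefore depended on the scaling. Of 18411 probes above background on all arrays, 1.84% had a control difference as high, and the median probe differed 1.15-fold. Summed endothelial markers also differed, at 151 to 170 units in the water controls and 85.1 to 97.5 in the 3-day gavage controls. Bile duct markers were higher too, at 5.66 to 6.81 against 4.42 to 4.62. Adipocyte markers were lower, at 2.11 to 3.73 against 4.59 to 20.9, and leukocyte and stellate cell markers overlapped. The part of these markers in the result was not tested, and slide and group cannot be told apart.

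Other cell types' markers at 14 days were set beside the fall of Lepr. Over all probes 9.63% were called at this time and 5.75% were called lower, and in lists this short 1 called marker is close to that share. Among 10 endothelial markers, 3 were lower: Flt1 (log2 ratio -0.51, adjusted P = 0.000147), Kdr (-0.22) and Eng (-0.16), the first pair being receptors of vascular endothelial growth factor and Eng a co-receptor of the TGF-beta family. The median of the 10 was 0.03, against -0.03 over all probes tested. Their summed level ran from 151 to 170 units in the controls and from 135 to 154 after H2. Of the hepatocyte markers 1 of 8 was lower, Pck1 (-0.42), which encodes a key enzyme of glucose production, 7 of the 8 had an unadjusted P under 0.05, and their median was -0.20. Of 11 leukocyte markers 1 was lower, Cd3e (-0.18), and of 7 stellate cell markers none was called by limma, with 1 at an unadjusted P under 0.05. The summed adipocyte markers, 3 of 6 above background, ran from 2.11 to 3.73 units in the controls and from 5.03 to 6.14 after H2, without overlap, and none of the 3 was called or had an unadjusted P under 0.05. The part of these markers in the Lepr result was not tested.

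Leprot, on chromosome 4 from 101647783 to 101659364, upstream of Lepr, and Leprotl1, on chromosome 8, had mean log2 ratios near 0 throughout. Leprot read 13.8 to 15.5 units in the gavage controls and 12.6 to 15.8 after MgH2, and 18.0 to 19.3 against 17.9 to 18.4 in the water experiment. Its mean log2 ratios were -0.04, -0.07, -0.04 and -0.03 at 1, 3, 7 and 14 days, and the 95% interval ran from -0.12 to 0.04 at 1 day and from -0.15 to 0.02 at 3 days. At 14 days the interval of Leprot, -0.11 to 0.06, did not overlap that of Lepr, -0.58 to -0.37. Leprotl1 was dimmer and more scattered, from -0.44 to 0.19 on the MgH2 arrays, with means of -0.09, 0.02, -0.04 and 0.01. Neither probe was called at any time. Their water controls were 1.27-fold and 1.70-fold above the gavage controls on this scale, and 1.05-fold and 1.41-fold above them in the deposited signals.

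Jak2, the kinase of the receptor, on chromosome 19, had the narrowest range of ratios among the members. It read 5.99 to 6.51 units in the gavage controls and 5.62 to 6.60 after MgH2. In the water experiment it read 4.25 to 4.43 in the controls and 4.13 to 4.51 after H2. All 12 log2 ratios lay between -0.09 and 0.05, and the control and H2 values overlapped in each group. The means were 0.04, -0.03, -0.01 and -0.02, with a 95% interval of -0.09 to 0.06 at 14 days.

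Ptpn1, the gene of the phosphatase PTP1B, on chromosome 2, was lower after MgH2 at 1 and 3 days by its brighter probe. A_52_P516021 fell from 3.08 to 2.46, from 2.81 to 2.35 and from 3.11 to 2.69 units at 1 day. At 3 days it fell from 2.87 to 2.36, from 2.92 to 2.42 and from 2.89 to 2.71. The control and H2 values did not overlap at either time. The mean log2 ratios were -0.26 (SE 0.05, 1.20-fold lower, adjusted P = 0.0137) at 1 day and -0.22 (SE 0.05, adjusted P = 0.0160) at 3 days. It was the only member called among 8 probes tested at 1 day, against 11.7% of all probes called and 8.03% called lower, and among 9 tested at 3 days, against 23.6% and 14.5%. In the deposited ratios the calls of all probes split into 1013 higher and 833 lower at 1 day, against 717 and 1580 as scaled here, and into 2389 and 2153 at 3 days, against 1759 and 2824. At 7 days the ratios were -0.05, -0.13 and -0.24 and at 14 days -0.22, -0.05 and -0.18, so that the probe was lower on 12 of 12 arrays. The means of -0.14 and -0.15 had adjusted P of 0.0683 and 0.118. The dyes were never exchanged, so a dye effect of this probe and an effect of H2 cannot be told apart. The MgH2 arrays may also share control pools, so the 12 ratios may not be independent.

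Leaving out single arrays moved the adjusted P of Ptpn1 past the threshold while the ratio stayed near its value. Without MgH2 replicate 1 the mean log2 ratio was -0.23 at 1 day (adjusted P = 0.0782) and -0.18 at 3 days (0.0891). Without replicate 2 it was -0.27 (0.0762) and -0.19 (0.100). Of 10 other ways of processing the arrays, 6 kept the call at each of these times. The second Ptpn1 probe, A_55_P2097111, was above background in both channels on 8 of 12 arrays and gave no such shift, with mean log2 ratios of -0.03 (95% interval -0.36 to 0.29) at 3 days and 0.00 (-0.32 to 0.33) at 7 days. These intervals hold the values of the brighter probe. At 7 days no member was called by limma among 9 tested, against 29.5% of all probes, although 1 of them, Ptpn1 A_52_P516021, had an unadjusted P under 0.05.

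**Figure D2:**
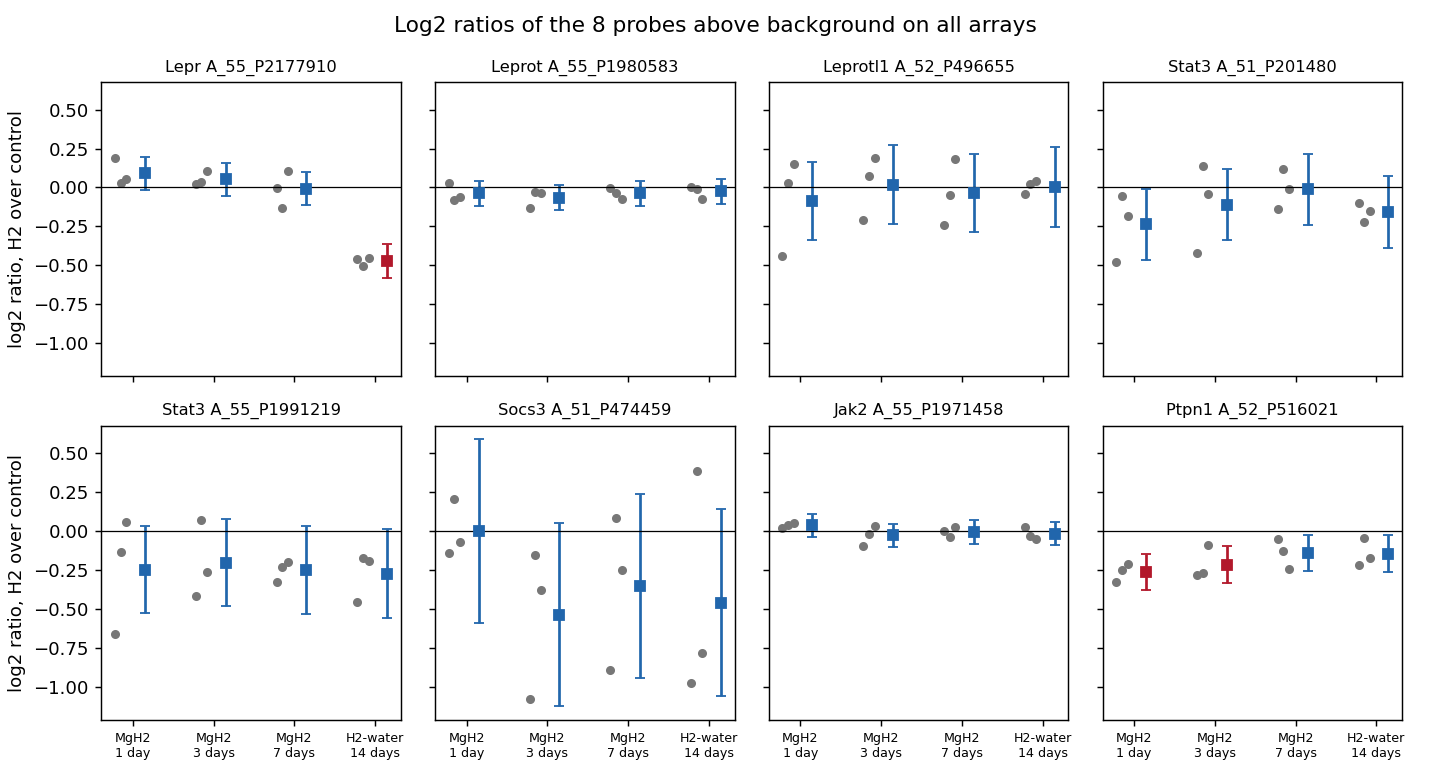
Log2 ratio of H2 over control for the 8 member probes above background on all 12 arrays, by agent and time, with grey points for the arrays and squares with bars for the fitted mean and its 95% interval, red where called at an adjusted P under 0.05 and blue where not. Red squares appear for Lepr at 14 days (-0.47) and for Ptpn1 at 1 and 3 days (-0.26 and -0.22), and the Socs3 points are spread the widest.

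Stat3, the transcription factor, on chromosome 11 from 100886806 to 100939594, was not called by either probe. A_51_P201480, printed 10 times on each array, read 43.1 to 56.7 units in the gavage controls and 40.6 to 51.0 after MgH2. In the water experiment it read 25.6 to 26.7 in the controls and 22.9 to 24.0 after H2, without overlap. The mean log2 ratios of this probe were -0.24, -0.11, -0.01 and -0.16 at 1, 3, 7 and 14 days, with adjusted P of 0.160, 0.473, 0.949 and 0.389. The second probe, A_55_P1991219, designed on another record, was dim, with means of -0.25, -0.20, -0.25 and -0.27 and adjusted P of 0.161 to 0.270. Its ratio was below 0 on all 3 arrays at 7 days and at 14 days. For the brighter probe the water controls stood at 0.528 of the gavage controls, and for the dim one at 0.966, so the probes differed in this step, while their mean ratios were all below 0. The only unadjusted P under 0.05 among both probes was 0.0431, for the brighter one at 1 day.

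Socs3, the STAT3-induced inhibitor of the receptor, whose promoter window above held the STAT site, varied the most of the members and was not called at any time. Its gene lies on chromosome 11 from 117966079 to 117970336. At 1 day the signal went from 5.85 to 5.31, from 3.24 to 3.73 and from 3.38 to 3.22 units. At 3 days it went from 5.34 to 2.52, from 3.21 to 2.89 and from 3.47 to 2.67, and at 7 days from 5.54 to 2.98, from 3.18 to 3.38 and from 3.41 to 2.86. All 3 arrays were lower after H2 at 3 days, with no overlap between the channels, and at the other times at least 1 array went the other way. In the water experiment it went from 5.40 to 2.74, from 3.28 to 4.28 and from 10.11 to 5.86. The mean log2 ratios were 0.00, -0.54, -0.35 and -0.46, with 95% intervals of -0.59 to 0.59, -1.13 to 0.05, -0.94 to 0.24 and -1.06 to 0.14. The adjusted P at 3 and 14 days were 0.168 and 0.326, and the intervals at these times include both no change and a fall of more than 1 on the log2 scale.

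The control channel of Socs3 repeated itself from one MgH2 experiment to the next. The controls numbered 1 read 5.85, 5.34 and 5.54 units at 1, 3 and 7 days, those numbered 2 read 3.24, 3.21 and 3.18, and those numbered 3 read 3.38, 3.47 and 3.41. The SD on the log2 scale was 0.0409 within a number across the times and 0.437 within a time across the numbers. For the brighter Stat3 probe the same SDs were 0.0371 and 0.181. Over all probes, the deviations of equally numbered MgH2 controls correlated at 0.322 to 0.671 and those of other numbers at -0.485 to 0.0915. The labels do not say whether 1 set of control pools served the 3 times, and the 3 comparisons are therefore given side by side as ones that may share their controls. Replicate 1 gave the lowest log2 ratio of Socs3 at each time, -0.14 at 1 day, -1.08 at 3 days, -0.89 at 7 days and -0.98 at 14 days.

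**Figure D3:**
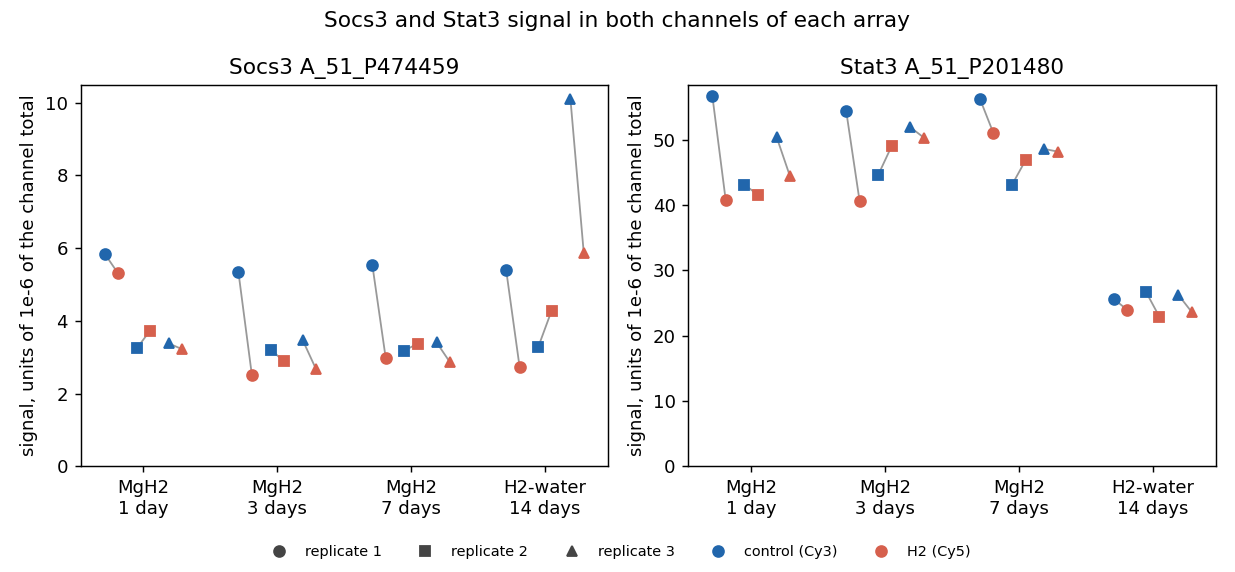
Signal in units (channel total set to 1000000) of Socs3 and of the brighter Stat3 probe on each array, with a line joining the control (Cy3) and the H2 (Cy5) channel of an array, by agent and time. The MgH2 controls numbered 1 stand at 5.34 to 5.85 for Socs3 at all 3 times and the others at 3.18 to 3.47, and the water controls spread from 3.28 to 10.11.

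The receptors that also signal through JAK2 or STAT3 were read from a list of 16 genes, of which 14 or 15 were tested. At 1 day 3 were lower and none higher, at 3 and 7 days 4 were lower and 1 higher, and at 14 days 1 was lower, where 11.7, 23.6, 29.5 and 9.63% of all probes were called. The list medians were -0.02, -0.11, -0.11 and -0.06 against -0.04, -0.03, -0.02 and -0.03 over all probes tested. Il6st, which encodes gp130, the shared signalling chain of the interleukin-6 family, had a log2 ratio of 0.10 at 1 day and fell by 0.31 at 3 days and 0.37 at 7 days (adjusted P = 0.00234 and 0.000630). Its ratios were -0.23, -0.44 and -0.26 at 3 days and -0.38, -0.33 and -0.40 at 7 days, below 0 on each array. Il6ra, the interleukin-6 binding chain, rose by 0.42 and 0.57 at these times (adjusted P = 0.0263 and 0.00506). Il10rb, a chain of the interleukin-10 and interleukin-22 receptors, had lower levels at 1, 3 and 7 days (-0.29, -0.42 and -0.51).

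Further receptors moved less. Osmr, the oncostatin M receptor, was lower at 3 days (-0.21) and 7 days (-0.26), and the prolactin receptor gene Prlr at 1 day (-0.27) and 3 days (-0.23). Il11ra1, the interleukin-11 receptor, was lower at 1 day (-0.13), 7 days (-0.11) and 14 days (-0.15, adjusted P = 0.0318). The changes of Il6st and Il10rb at 3 and 7 days and of Il6ra at 7 days were called whichever single array was left out. Those of Il11ra1 at 1, 7 and 14 days, Osmr and Il6ra at 3 days and Il10rb at 1 day were called in 0 of 3 such refits. Those of Prlr at 1 and 3 days and of Osmr at 7 days were each called in 1 of 3. Among receptors that were not called, Egfr had mean ratios of 0.38 at 1 day and 0.26 at 3 days. Lifr, the leukaemia inhibitory factor receptor, had -0.27 at 3 and at 7 days and -0.22 at 14 days, and Insr, the insulin receptor, had -0.22 at 14 days.

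The other genes of leptin signalling formed a list of 30, of which 26 to 28 were tested. At 1 day 1 was higher and 2 lower, at 3 days 3 and 2, and at 14 days none in either direction by limma, where 6 had an unadjusted P under 0.05 and 1 was called higher with median-centred arrays. At 7 days 6 were higher and 2 lower, which became 0 higher and 5 lower when each array was centred on the median of all its spots. The 8 genes called of 26 at 7 days stood against 29.5% of all probes, and the 5 called of 28 at 3 days against 23.6%. Without single arrays the 1-day counts were 0 higher and 0 to 1 lower, and the calls of Ptpn11 and Pik3r1 at 1 day and of Pik3ca at 3 days were made in none of the 3 refits. Ptpn11, which encodes the phosphatase SHP2 that binds the receptor, rose by 0.13, 0.22 and 0.18 at 1, 3 and 7 days (adjusted P = 0.0396, 0.00214 and 0.00391). Its 9 MgH2 ratios ran from 0.09 to 0.24. Grb2, the adaptor that SHP2 recruits, rose by 0.22 at 7 days, and Ptpn2, a phosphatase of JAK and STAT proteins, by 0.22 at 3 days and 0.20 at 7 days. Irs1, the insulin receptor substrate, rose by 0.45 and 0.34 at these times.

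The kinases of the JAK family that were called fell. Tyk2 fell by 0.46 at 3 days and 0.45 at 7 days, and Jak3 fell by 0.31 at 7 days. Of the phosphoinositide 3-kinase genes, Pik3r1 was lower at 1 day (-0.21) and Pik3ca at 3 days (-0.36). Of the AMP-activated kinase genes, Prkaa2 was lower at 1 day (-0.17) and Prkag1 higher at 7 days (0.13), and Stat5b was higher at 7 days (0.27). The calls of Ptpn11 at 3 and 7 days and of Grb2 at 7 days were made whichever array was left out. The largest mean ratios that were not called belonged to Cish and Socs2, inhibitors of the same family as Socs3. Those of Cish were 0.80, 0.95, -0.49 and -1.21 at 1, 3, 7 and 14 days, with 3-day arrays at 2.11, -0.78 and 1.51. Socs2 was at 0.73 at 1 day, and Irs2 at -0.45 at 14 days.

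The liver genes known to be switched on by STAT3, mostly acute-phase proteins, formed a list of 28, of which 24 to 26 were tested. At 1 day 1 was lower, at 3 days 5 were lower and 1 higher, at 7 days 3 and 2, and at 14 days 1 was lower. The 6 called of 25 at 3 days stood against 23.6% of all probes and the 5 of 25 at 7 days against 29.5%, close to or below the rate of the array. The list medians were -0.13, -0.45, -0.26 and -0.19. Hpx, the haem-binding haemopexin, was lower at 1, 3 and 7 days (-0.34, -0.52 and -0.40), and the orosomucoid genes Orm1 and Orm2 were lower at 3 days (-0.45 and -0.54) and 7 days (-0.39 and -0.45). Itih4, an inter-alpha-trypsin inhibitor chain, was lower at 3 days (-0.46). Saa1, an acute-phase apolipoprotein, had the lowest ratios among the genes called, -3.76, -2.06 and -2.26 at 3 days, with a mean of -2.69 and an adjusted P of 0.0429, which became 0.104 to 0.192 when any 1 of the 3 arrays was left out. Saa2, a near-identical copy whose signal may not be separate, had a mean of -3.13 and an adjusted P of 0.0608.

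A few STAT3 targets went the other way. Mt1, the metal-binding metallothionein, rose by 0.77 at 3 days and 0.99 at 7 days. Myc rose by 0.63 at 7 days and fell by 0.97 at 14 days, where the 3 arrays read -0.74, -0.52 and -1.65. The Myc call at 7 days was lost when any 1 array was left out, and that at 14 days in 2 of the 3 cases. The largest ratios at 1 day that were not called were 0.78 for Hamp, which encodes the iron hormone hepcidin, and -0.44 for Steap4. Without single arrays the number of targets called lower at 3 days fell to between 1 and 3. Of all the 3-day calls in this list, that of Hpx was the one made in each of these refits. The 1-day call of Hpx was made in 0 of 3 such refits and its 7-day call in 2 of 3. The 7-day calls of Orm1, Orm2 and Mt1 were each made in 1 of 3. At 1 day the calls in all 3 lists were lost, with 0 left in each, when every array was centred on the median of its spots.

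Some markers of leukocytes and stellate cells were lower at 3 and 7 days. Of all probes tested at 3 days, 23.6% were called in either direction and 14.5% were called lower. Of the 19470 tested at 7 days, 29.5% were called in either direction and 3353 probes were called lower. Of 10 endothelial markers 1 was higher and 1 lower at 3 days, with a median of -0.001. At 7 days 1 endothelial marker was higher and 2 were lower, with a median of -0.05. Of 11 leukocyte markers 6 were lower at 3 days and 6 at 7 days, among them Vsig4 (-0.39 and -0.50) and Clec4f (-0.39 and -0.48) of Kupffer cells, the resident macrophages. The leukocyte medians were -0.39 and -0.36, against -0.03 and -0.02 over all probes tested. Marco, Cd3e and Itgam were above 0 at 3 days (0.22, 0.08 and 0.02) and were not called. The summed level of the leukocyte markers ran from 139 to 173 units in the 3-day controls and from 107 to 128 after H2. Of the stellate cell markers 4 of 8 were lower at 3 days, among them Lrat (-0.50) and Col1a1 (-0.44), and 4 of 9 at 7 days. Of 9 hepatocyte markers 5 were higher and 1 lower at 7 days. The summed adipocyte markers ran from 4.59 to 20.9 units among the 3-day controls and from 5.70 to 8.39 after H2, with 3 of the 6 markers above background. The part of these markers in the results for the receptors and STAT3 targets was not tested.

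**Figure D4:**
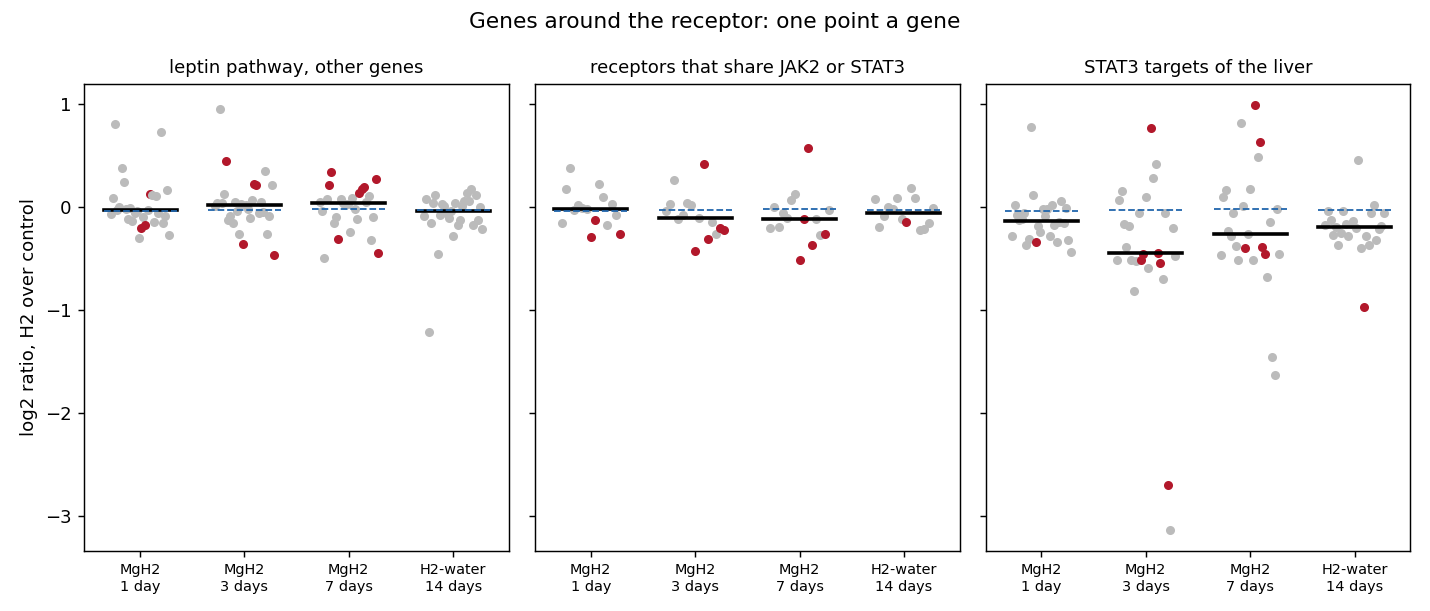
Log2 ratio of H2 over control for each tested gene of the 3 lists (leptin pathway, receptors that share JAK2 or STAT3, STAT3 targets of the liver) by time, with called genes in red, a black line at the list's median and a dashed blue line at the median of all probes tested. The STAT3 targets reach the lowest values, with Saa1 at -2.69 and Saa2 at -3.13 at 3 days, and their median of -0.45 at 3 days lies below the -0.03 of all probes.

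The probes whose ratios followed Lepr most closely over the 12 arrays, among 18411 above background throughout, were those of Krtap19-4 (Pearson r 0.970), E130304I02Rik (0.965), Rapsn (0.963), Gfra4 (0.963) and Dvl3 (0.959). All 5 had their lowest group mean at 14 days, from -0.09 for Rapsn to -0.30 for Krtap19-4, and the 14-day arrays share a slide. For Leprot, Leprotl1 and the brighter Stat3 probe r with Lepr was -0.16, -0.12 and -0.07. The closest to Socs3 were Nup210 (0.896), Terf1 (0.881), F2r (0.869), Kyat1 (0.869) and Mfsd6 (0.854). These are descriptions over arrays that may share control pools, and carry no test.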

How the data were processed

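Liver RNA was measured on 12 2-colour Agilent arrays of 44397 features. Per the file headers the authors' scanner files were made with Agilent Feature Extraction 10.10.1.1 (1, 3 and 7 days) or 10.7.3.1 (14 days), although the submitters' processing notes name 10.10.1. The deposited intensity values (processed signals) were background-subtracted and dye-normalised by that software. Its deposited log10 ratio and p-value per spot and the deposited log2 values were used as alternatives. These log2 values equalled the scanner ratio, Cy5 over Cy3, within 1.4e-06.

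Each channel's total over unflagged, non-control spots was set to 1000000 units, and log2 ratios were averaged over the spots of a probe. A probe was tested if most of its spots were well above background in each channel of every array compared. All 12 arrays were fitted together by group with limma 3.58.1 in R 4.3.3. P-values were adjusted by Benjamini-Hochberg over all probes tested and called under 0.05. Probes were assigned by RefSeq record (26761 of 39429 carry a symbol). Promoters and figures were made with Python 3.11.15 and matplotlib 3.10.9. On simulated data, 76.5 to 84% of 200 probes changed 1.5-fold were recovered among 18411, and 4 to 7.6% of the calls were false. The noise simulated was independent between arrays, unlike that of the MgH2 arrays. The member changes called at a time were smaller, 1.16- to 1.39-fold, so this recovery does not apply to them. The number of arrays limits the precision.

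The numbers of the MgH2 replicates paired the arrays: the deviations of equally numbered arrays' ratios correlated at 0.368 to 0.655 (9 of 9 pairs over 0.1) and those of other numbers at -0.433 to 0.0531. With the 14-day arrays the range was -0.0411 to 0.287. Among the MgH2 arrays the likeness by number lay in the control channel, at 0.322 to 0.671 for equal numbers (9 of 9 pairs over 0.1). In the H2 channel equal numbers correlated at -0.296 to 0.176 (2 of 9 pairs over 0.1), so the treated pools were not seen to be paired by number.

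Alternatives were the deposited ratios, median centring, normexp with an offset of 50 and loess, flagged spots kept and no filter. Others were the scanner p-value as a filter, fewer arrays, replicate and slide blocks and leaving out each array. The methods' t-test was also used, with a Benjamini-Hochberg adjustment added to it. Centring on probes above background and the comparison with the mean of 1, 3 and 7 days were chosen after seeing the data. Members, lists and the named genes (all member probes, list genes called, up to 6 per list and time by adjusted P, the 2 largest ratios per list and time, and the 5 probes most like Lepr and Socs3) were chosen with earlier results of these data known. The cell type markers named were chosen after their values were seen.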

Additional observations from a re-analysis of the deposited data

Results flagged for a closer look

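The log2 ratio of Lepr (A_55_P2177910) differed between the 14-day H2-water and the 1-day MgH2 experiment by -0.56 (SE 0.07, adjusted P = 0.0261, limma with Benjamini-Hochberg), which drew attention because the 2 groups' effects under the same contrast, H2 over control, differed by a test of the difference itself. It was below 0 on 3 of 3 arrays at 14 days and above 0 on 3 of 3 at 1 day.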

How the results depend on the processing

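No called value of a member changed sign under any alternative. The 14-day fall of Lepr was called in 10 of 11 other settings (log2 ratio -0.47 to -0.39). It was lost with the methods' t-test once a Benjamini-Hochberg adjustment was added (-0.47, adjusted P = 0.0524). Without single arrays it ran from -0.48 to -0.46. Its 14 minus 1 day difference was called in 8 of 10, and lost with median-centred arrays (-0.47, adjusted P = 0.105), with only the arrays compared (-0.56, 0.155) and without each single array (-0.60 to -0.52). The numbers of probes called moved more. At 1 day they were 823 median-centred, 0 with only the 3 arrays of that time (limma), 923 without the filter on dim probes, 144 with the scanner p-value as a filter, 3755 with slide as a random block, 70 with the methods' t-test and 533 to 1051 without single arrays, and 5608 probes had an unadjusted P under 0.05 in the full fit. At 3 days the same settings gave 2991, 310, 2618 and 330, the t-test 33 and single omissions 2171 to 3054. At 7 days only 3 arrays gave 2282, the scanner filter 570, the t-test 58 and omissions 3263 to 4007. At 14 days these were 432, 173, 11 and 424 to 591. The t-test counts are those after the added adjustment. At an unadjusted P under 0.05 the t-test gave 3218, 3905, 5001 and 4273 probes at 1, 3, 7 and 14 days. For 3 minus 1 days (4 probes) the count was 1 median-centred or centred on probes above background, 18 with normexp and loess, 0 with only the arrays compared, without the filter or with a fixed slide block, and 0 to 6 without single arrays. For 7 minus 1 days it was 151 with only the arrays compared, 86 without the filter, 0 with the slide block and 161 to 886 without single arrays. For 14 minus 1 days (9 probes) it was 14 as deposited, 4 median-centred, 90 with normexp and loess, 18 centred on probes above background, 592 against the mean of 1, 3 and 7 days with or without centring, 0 with only the arrays compared, 66 without the filter and 0 to 2 without single arrays. The replicate block, which pairs the MgH2 arrays by number, gave 64 for 3 minus 1, 2599 for 7 minus 1 and 162 for 14 minus 1 days and changed no call of a member. The cause of these changes was not tested, beyond fewer arrays or more probes entering the fit. The uncalled Lepr ratio at 7 days (-0.01) became 0.02 as deposited, 0.03 with normexp and loess, 0.01 centred on probes above background and 0.05 without MgH2 replicate 2. Of the other members' values under alternatives, 819 kept their side of the threshold, 12 lost and 2 gained a call, and 99 of 833, none called, changed sign. Precision is limited by 3 pools a group, by the dyes never being exchanged and by 3 Lepr probes and 1 Ptpn1 probe at or near background.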

Other observations

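The acute-phase genes Saa1 and Saa2 and the iron hormone gene Hamp had ratios far apart, and of both signs, on the arrays of 1 group. At 1 day Saa1 had log2 ratios of -2.77, 2.43 and -0.11 and its near-identical copy Saa2 -3.30, 3.24 and 0.03. At 14 days Hamp had ratios of -1.63, 3.87 and -2.35. None of these was called at these times.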
